A study of Mus musculus with 2 samples.

Results

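The 40 genes described here code for nuclear receptors, and they were matched by Ensembl gene identifier from a fixed list to the gene and transcript quantifications of adult mouse cerebellum. All 40 were found among 43346 annotated genes, of which 21474 are protein-coding. The data are RNA sequencing of 2 libraries from cerebellum of C57BL/6J mice, the standard inbred laboratory strain, at 8 weeks of age. No treatment or altered allele is named. The libraries are numbered as biological replicates 1 and 2 of 1 group, so there is no contrast between conditions, and both point to the same donor record.

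Nuclear receptors are transcription factors that bind DNA through a zinc finger domain, and many of them are switched by a small lipid-soluble ligand such as a steroid, a retinoid, an oxysterol or a fatty acid. Some act as heterodimers with a retinoid X receptor, steroid receptors act mostly as homodimers, and others bind DNA as monomers. Those without a known natural ligand are called orphan receptors. In the cerebellum the family is best known for RORα, which Purkinje cells need to mature and survive: its loss causes the ataxia of the staggerer mouse.

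Genes held 79771873 estimated fragments in replicate 1 and 80281011 in replicate 2. The labels give mixed sex for each library, and the counts go against that. Xist, which is transcribed from the inactive X chromosome, had 45928 counts in replicate 1 and 26 in replicate 2, whereas 4 genes of the Y chromosome had no counts in replicate 1 and 1328 to 3776 in replicate 2. By these counts the libraries differ in sex, so a difference between them cannot be told apart from one of sex. Cerebellar identity was clear in both libraries: the granule neuron gene Gabra6 stood at 336 and 269 TPM (a length-corrected relative level) and the Purkinje gene Pcp2 at 1585 and 1349 TPM in replicates 1 and 2. The libraries were not alike in adjoining tissue. The summed TPM of 8 choroid plexus genes was 2139 in replicate 1 and 787 in replicate 2, and that of 5 red blood cell genes was 746 and 1635. That of 6 brainstem neuron genes was even, at 29.1 and 29.9. The part of such tissue in the receptor levels was not tested. Each level below is given for both libraries, replicate 1 before replicate 2. In whole tissue, fewer cells of a type and less RNA per cell cannot be told apart.

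Of the 40 receptors, 27 (67.5%) were at 1 TPM or more in both libraries, beside 60.9% of protein-coding genes. The same count was 27 in each library taken alone. The median receptor stood at 4.01 TPM (4.30 in replicate 1 and 3.72 in replicate 2), and the median protein-coding gene at 4.77 TPM. A small number of receptors held most of the signal: the 7 highest took 65.8% and 66.1% of the family's summed level of 542 and 529 TPM. At the other end, 12 receptors were under 0.5 TPM in both libraries, and 10 had 25 or fewer counts in each. The order of the levels was finely graded. In 16 of the 39 pairs of neighbours in that order the values of the 2 libraries overlapped, so those pairs did not differ beyond the spread of the libraries.

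**Figure D1:**
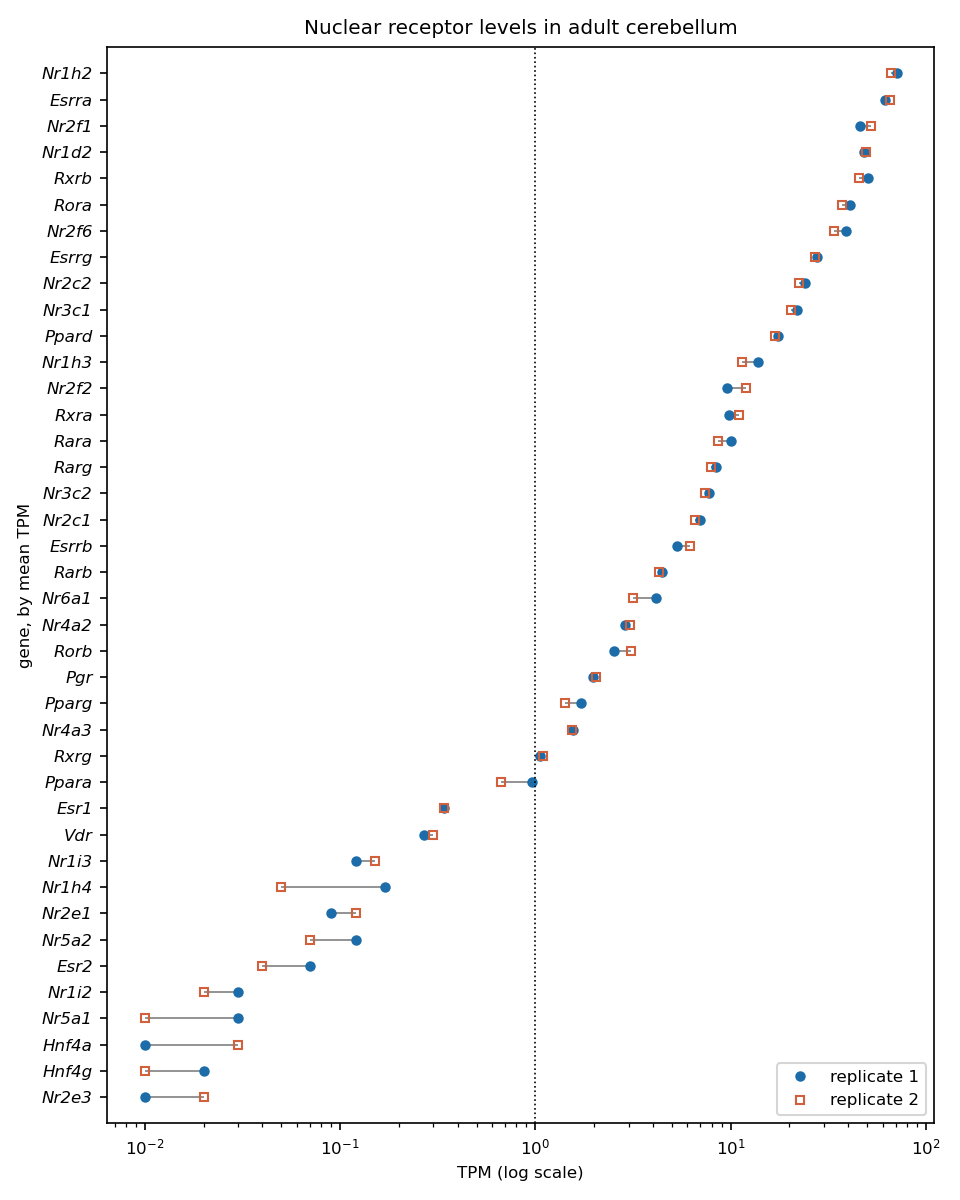
Level of each of the 40 nuclear receptor genes in the 2 cerebellum libraries, in TPM on a log scale, ordered by the mean of both. Filled circles are replicate 1, open squares replicate 2, the grey line joins them and the dotted line marks 1 TPM; the distance between the libraries is small above 1 TPM and widens among the receptors with few counts.

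The retinoid X receptors are the shared partners of many other family members, and the 3 genes differed widely. Rxrb (ENSMUSG00000039656.12, mm10 chr17:34031812-34038399, plus strand) was at 50.3 and 45.4 TPM, against 9.79 and 11.1 TPM for Rxra and 1.06 and 1.10 TPM for Rxrg. Rxrb thus held 82.2% and 78.8% of the subfamily's TPM, and the 3 ranges did not overlap. The retinoic acid receptors, which pair with them, were more even. Rara was at 10.1 and 8.57 TPM, Rarg at 8.44 and 7.89 TPM and Rarb at 4.45 and 4.28 TPM. Rarb overlaps Top2b, which was at 31.6 and 27.1 TPM, on the opposite strand over 4624 bases. The leading member, Rara, held 43.9% and 41.3% of this subfamily's level.

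Of 15 genes that make, bind or break down retinoids, 11 were at 1 TPM or more in both libraries, with a median of 3.36 TPM; for this and the lists that follow, the same values over all protein-coding genes are the 60.9% and 4.77 TPM given above. The highest was Aldh1a1, a retinaldehyde dehydrogenase, at 117 and 126 TPM. Among the enzymes that degrade retinoic acid, Cyp26b1 was at 7.95 and 8.25 TPM, while Cyp26a1 and Cyp26c1 had no counts in either library. Aldh1a2, another retinaldehyde dehydrogenase, was the only gene of this list at least 2-fold apart between libraries, at 4.62 TPM in replicate 1 and 2.09 TPM in replicate 2 (log2 difference 1.07). The summed TPM of 6 meningeal fibroblast genes moved the same way, at 103 and 69.4, and its part in the result was not tested.

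The liver X receptors bind oxysterols and control cholesterol export. Nr1h2, which codes for LXRβ (ENSMUSG00000060601.8, mm10 chr7:44549616-44553951, minus strand), had the highest mm10 TPM of all 40 receptors. It stood at 70.8 and 66.6 TPM (mean 68.7 ± 3.03, SD, n = 2), above 90.3% of protein-coding genes. Nr1h3, for LXRα, was at 13.9 and 11.5 TPM, so the β form held 83.6% and 85.3% of the pair. All 10 genes of a list of sterol export genes and LXR targets were at 1 TPM or more, with a median of 56.1 TPM. They included Apoe, the main apolipoprotein of the brain, at 1825 and 1852 TPM, and at the low end the cholesterol exporter Abca1 at 6.97 and 6.31 TPM. Of 6 enzymes that make or clear oxysterols 5 passed 1 TPM; the highest, Cyp46a1, which hydroxylates cholesterol in neurons, was at 45.7 and 46.9 TPM, and Ch25h was at 0.38 and 0.23 TPM.

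The bile acid receptor gene Nr1h4 (FXR) had 16 counts in replicate 1 and 5 in replicate 2. The vitamin D receptor gene Vdr, at 0.27 and 0.30 TPM from 60 and 69 counts, was low but even between libraries. The xenobiotic receptor genes Nr1i3 (CAR) and Nr1i2 (PXR) had 16 and 20 counts and 4 and 2 counts. Nr1i3 lies opposite Tomm40l, a gene at 60.7 and 54.1 TPM, over 4691 bases. This sector of the family was nearly silent, and its enzymes were low too: 2 of 9 vitamin D and xenobiotic genes were at 1 TPM or more, with a list median of 0.05 TPM. The 2 were Cyp3a13 at 1.88 and 1.83 TPM and Abcb1a, the drug efflux pump of brain endothelium, at 14.1 and 12.99 TPM.

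The peroxisome proliferator-activated receptors bind fatty acids and regulate their oxidation and storage. Ppard was the leading one, at 17.4 and 16.9 TPM, with 86.7% and 89.0% of the subfamily. Pparg, best known from fat cells, was at 1.71 and 1.42 TPM. Ppara, the main form in liver, was at 0.96 and 0.67 TPM and so under 1 TPM, below Rxrg. By posterior mean TPM, a second estimate in the same tables, Ppara was above 1 in both libraries, at 1.35 and 1.14, beside 1.11 and 1.14 for Rxrg. Part of it belonged to short non-coding transcripts. Ppara-204, Ppara-205 and Ppara-206 held 8.41%, 11.55% and 16.14% in replicate 1, from 0, 0 and 1 counts. In replicate 2 they held 9.72%, 20.99% and 9.31%, from no counts. Rxrg-203 and Rxrg-204, also without counts, held 9.47% and 7.34% in replicate 1 and 7.37% and 8.22% in replicate 2. Of 17 PPAR target genes 15 were at 1 TPM or more, with a median of 16.9 TPM. The fatty acid binding proteins led that list, with Fabp3 at 144 and 124 TPM and Fabp5 at 104 and 119 TPM, and the fatty acid transporter Cd36 was lowest at 0.18 and 0.14 TPM.

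Rora (ENSMUSG00000032238.13, mm10 chr9:68653786-69388246, plus strand) codes for RORα. It had the most counts of any member, 18421 and 17712, but was the sixth by TPM at 40.9 and 37.0, since TPM corrects for its long transcript. It held 94.2% and 92.3% of the level of the 2 ROR genes; Rorb, a marker of sensory and cortical neurons, was at 2.54 and 3.10 TPM. All 6 genes listed as RORα targets in Purkinje cells were detected, with a median of 171 TPM. Pcp2 and Pcp4 were the highest, and Shh, which Purkinje cells release to drive granule cell precursors, was the lowest at 3.57 and 3.45 TPM. Pcp2, Itpr1 and Slc1a6 are also among the Purkinje markers, so this list is no independent reading of RORα activity.

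Nr1d2 codes for REV-ERBβ, a repressor that competes with ROR proteins for the same DNA sites in the circadian clock. It was at 48.0 and 49.3 TPM. Of 7 genes listed as targets of ROR and REV-ERB proteins, 6 were at 1 TPM or more, with a median of 14.7 TPM. The exception was E2f8, at 0.09 and 0.07 TPM. The highest of them, Nr1d1 (REV-ERBα), was at 109 and 91.5 TPM, and Arntl, which codes for the clock activator BMAL1, was at 18.8 and 14.97 TPM. The labels give no hour of tissue collection.

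The oestrogen-related receptors are orphan receptors that act with PGC-1 proteins on genes of mitochondrial respiration. All 3 were expressed. Esrra (ENSMUSG00000024955.9, mm10 chr19:6910977-6921813, minus strand) came next after Nr1h2 by mm10 TPM, at 61.4 and 65.4 TPM, Esrrg stood at 27.6 and 26.9 TPM and Esrrb at 5.34 and 6.19 TPM. Their ranges did not overlap. The coactivator Ppargc1a (PGC-1α) was at 19.3 and 18.8 TPM and Ppargc1b at 9.93 and 8.41 TPM. A list of 10 ERR and PGC-1 targets, which includes Esrra itself, was at 1 TPM or more throughout, with a median of 167 TPM; Cox4i1, a subunit of cytochrome c oxidase, was at 1800.2 and 1848 TPM. Pdk4, which restrains the use of pyruvate, was the lowest at 5.08 and 4.12 TPM. Esrra overlaps Trmt112 on the opposite strand by 73 bases. Trmt112 was at 79.6 and 78.5 TPM, and the libraries are stranded per the labels.

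The oestrogen receptors proper were at the other end of the order. Esr1 was at 0.34 and 0.34 TPM from 90 and 104 counts. Esr2 had 10 and 6 counts. The 3 oestrogen-related genes therefore summed to 94.3 and 98.5 TPM, against 0.41 and 0.38 TPM for the 2 oestrogen receptor genes. Cyp19a1, the aromatase that makes oestradiol, had no counts, and of 12 neurosteroid synthesis genes 5 were at 1 TPM or more. The highest of those were the electron carriers Fdxr at 35.1 and 36.0 TPM and Fdx1 at 22.0 and 19.7 TPM.

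Among the other steroid receptors, the glucocorticoid receptor gene Nr3c1 led at 21.9 and 20.5 TPM. The mineralocorticoid receptor gene Nr3c2 was at 7.72 and 7.42 TPM and the progesterone receptor gene Pgr at 1.98 and 2.04 TPM. This order was the same in both libraries, with no overlap. Of 8 chaperones and steroid-converting enzymes that serve these receptors, 7 were at 1 TPM or more. They ranged up to Hsp90ab1, the HSP90 that holds unliganded receptors, at 600.4 and 586 TPM. Hsd11b1, which regenerates active glucocorticoid, was at 62.6 and 60.1 TPM, whereas Hsd11b2, which inactivates it, had 1 and 5 counts. All 11 glucocorticoid-induced genes listed were at 1 TPM or more, with a median of 20.1 TPM, led by Tsc22d3 (GILZ) at 102 and 107 TPM and with Zbtb16 lowest at 4.66 and 2.80 TPM.

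The COUP transcription factors are orphan receptors that pattern the developing brain. Nr2f1 (ENSMUSG00000069171.9, mm10 chr13:78188973-78199757, minus strand) was at 45.8 and 52.5 TPM, Nr2f6 at 39.2 and 33.7 TPM and Nr2f2 at 9.53 and 11.95 TPM. Nr2f1 and Nr2f2 were both the higher in replicate 2, whereas Nr2f6 was the higher in replicate 1. The short transcript Nr2f1-202 held 67.35% and 62.98% of the TPM of Nr2f1, but few of its junction reads, as described below. By mm9 RPKM (reads scaled by transcript length and library size) Nr2f6 was above Nr2f1 in both replicates, at 6.09 and 5.82 against 4.57 and 5.68. The place of Nr2f1 above Nr2f6 therefore depended on the measure. The testicular receptors TR4 and TR2, which bind direct repeats, came from Nr2c2 at 24.1 and 22.5 TPM and Nr2c1 at 6.94 and 6.58 TPM. Nr2c2 overlaps the expressed gene Mrps25 on the opposite strand, over 4770 bases.

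The immediate-early receptor genes of the NR4A group, which neurons switch on with activity, were Nr4a2 at 2.88 and 3.05 TPM and Nr4a3 at 1.56 and 1.54 TPM. The value of Nr4a2 depended on the estimate: its posterior mean TPM was 6.37 and 7.07. Of that estimate, 53.97% and 55.65% belonged to Nr4a2-204, a non-coding transcript of 182 bases with no counts in either library. Nr6a1, the germ cell nuclear factor gene, was at 4.15 and 3.16 TPM. The remaining members work mainly elsewhere. Nr2e1, the TLX gene of adult neural stem cells, had 15 and 21 counts, the photoreceptor gene Nr2e3 had 1 and 1, and Nr5a2 (LRH-1), a regulator of liver and gut, had 12 and 15. Nr5a1 (SF-1), which directs steroid-producing glands, had 5 and 1 counts. The liver and gut regulators Hnf4a and Hnf4g had 3 and 6 and 2 and 1 counts. Counts this small carry wide errors: for Nr5a1 the ratio of replicate 1 to replicate 2 was 5.03, with a 95% exact interval of 0.563 to 238 that covers counting error only.

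The cofactors that receptors recruit were all present. All 11 coactivators were at 1 TPM or more, with a median of 19.6 TPM, from Carm1, an arginine methyltransferase, at 35.8 and 30.5 TPM down to Ppargc1b. All 11 corepressors were too, with a median of 19.8 TPM. Hdac3 and Ncor1, which belong to 1 repressor complex, were at 103.5 and 100.9 TPM and at 100.6 and 83.7 TPM, and Lcor, a ligand-dependent corepressor, was lowest at 2.87 and 2.46 TPM. Of 8 nuclear receptors outside the 40, 7 passed 1 TPM; the thyroid hormone receptor gene Thra, at 288 and 283 TPM, was above every member.

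The members carry 222 annotated transcripts. In all 27 receptors at 1 TPM or more the same transcript led by TPM in both libraries, and each of these was coding. In 20 of the 27 it also led by mm9 RPKM; the exceptions were Nr1h2, Nr1h3, Nr2f1, Esrrg, Nr3c1, Pgr and Nr4a2. For Pgr the leading transcript, Pgr-204, has no mm9 value, so it could not lead there. The leading transcript held a median of 76.2% of the gene's TPM. In 6 genes it held over 90% in both libraries, among them Nr2c2 (92.4% and 94.6%), Nr1d2 (93.5% and 95.5%) and Nr2c1 (95.7% and 96.7%). Another of the 6, Rarb, has only 1 transcript in the mm10 quantifications, so its share and its lead in both libraries were fixed in advance. In 8 genes at least 2 transcripts held 20% or more in both libraries. Rarg was split between Rarg-202 (52.6% and 51.7%) and Rarg-201 (36.1% and 39.1%), and Rara between Rara-207 (49.1% and 46.0%) and Rara-203 (33.2% and 36.9%). For Nr2f1 and Nr2f2 the leading transcript by TPM was not the leading one by estimated fragments.

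Reads across splice junctions, deposited separately on the mm9 assembly for 2 replicates that are not tied to the mm10 libraries, count which upstream exons join a shared exon. The sequences below are the exon joins of 3 genes in which alternative upstream exons join 1 downstream exon. They are shown because the first 15 bases, in capitals, tell the forms apart while the last 15 bases, the shared exon, are the same. They were read from GENCODE M21 transcripts on mm10, 5′ to 3′, and all bases are coding. From the last base of the upstream exon to the first base of the shared exon, Rora-201 spans chr9:69196104-69348132 and Rora-202 chr9:69290048-69348132, on the plus strand. On the minus strand, with the shared exon at the lower coordinate, Nr2f2-201 spans chr7:70358290-70359888, Nr2f2-202 chr7:70358290-70366093, Rarg-202 chr15:102241984-102246060 and Rarg-201 chr15:102241984-102252419.
Rora-201: AGAAGACACACACATctcaaattgaaatta
Rora-202: TCGCAGCGATGAAAGctcaaattgaaatta
Nr2f2-201: GCATGAGACGGGAAGctgtacagagaggca
Nr2f2-202: GCAAATATGGTTTTGctgtacagagaggca
Rarg-202: CTGCCAGTCTACAATcggtggagacacaga
Rarg-201: AGATGGCTTCTCTCTcggtggagacacaga

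For Rora the 2 measures gave opposite orders. The join of Rora-202 (intron of 58083 bases on chromosome 9) had 87 and 76 junction reads, against 29 and 26 for that of Rora-201 (intron of 152027 bases), so the shorter form held 75.0% and 74.5% of the reads. By TPM, Rora-201 held 93.7% and 94.2% of the same pair, at 31.3 and 28.5 TPM against 2.11 and 1.76 TPM for Rora-202. The 2 annotated transcripts differ in length, 10878 against 2591 bases, although their coding parts, 1569 and 1401 bases, are close. The part of that difference in the TPM shares was not tested.

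The COUP genes showed the same kind of disagreement. The full-length Nr2f1-201 join had 574 and 667 reads, against 18 and 17 for Nr2f1-202, or 97.0% and 97.5% of the junction reads. Yet Nr2f1-202, annotated at 841 bases against 3207, held 68.7% and 68.1% of the pair's TPM. Its share of estimated fragments was 32.0% and 31.3%. For Nr2f2 the join of Nr2f2-201 had 85 and 106 reads and that of Nr2f2-202 had 41 and 50, so Nr2f2-201 held 67.5% and 67.9%; by TPM Nr2f2-202 held 68.1% and 69.7%.

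Esrrg also changed order. The donor of Esrrg-203 and Esrrg-204 had 162 and 130 reads and that of Esrrg-201 had 41 and 41, so the donor of Esrrg-203 and Esrrg-204 held 79.8% and 76.0% of reads, while Esrrg-201 held 67.8% and 73.4% of the TPM. The donor of Esrrg-203 and Esrrg-204 ends an exon of 88 bases, into which the unannotated Esrrg junctions described below also lead. Its reads therefore cannot be credited to those transcripts alone, and their source was not tested. In Rarg the 2 measures kept 1 order: Rarg-202 held 58.5% and 66.2% of the junction reads, with 55 and 47 reads against 39 and 24, and 58.3% and 56.9% of the TPM. In Rara the alternative donors of Rara-203 and Rara-204 had 11 and 15 reads against 16 and 15, too few to give an order, and Rara-203 held 77.2% and 79.0% of their TPM. The leading transcript by TPM was the same in both libraries, but in Rora, Nr2f1, Nr2f2 and Esrrg junction reads gave the other alternative donor more. They also gave more to the other alternative acceptor of Rxrb, described below. These cases stand besides the genes above whose lead differed by mm9 RPKM.

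**Figure D2:**
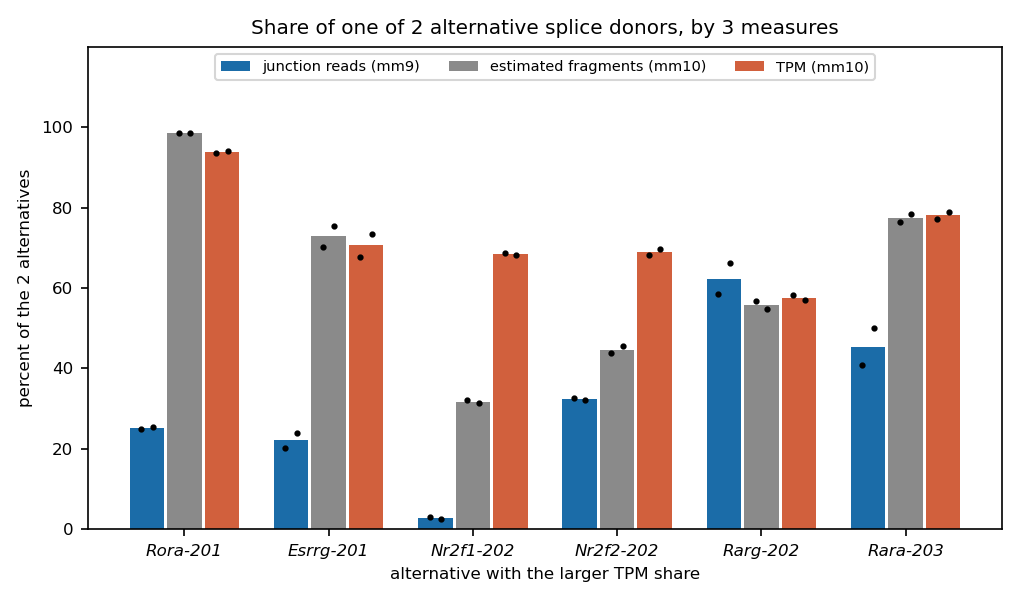
Share of the alternative with more TPM, of 2 alternative splice donors to a shared exon, in 6 nuclear receptor genes, in percent of both alternatives, by mm9 junction reads, mm10 estimated fragments and mm10 TPM. Bars are the mean of 2 replicates and dots the replicates; for Rora-201, Esrrg-201, Nr2f1-202 and Nr2f2-202 the junction reads make it the smaller alternative and the TPM the larger one.

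Small shifts of an acceptor gave receptor forms that differ by a few coding bases. The next 4 joins are shown because each pair shares the last 15 bases of the upstream exon and differs in where the downstream exon, in capitals, begins. Rxrb-201 spans chr17:34036757-34036861 and Rxrb-202 chr17:34036757-34036873 on the plus strand, and Nr1h2-201 spans chr7:44552245-44552507 and Nr1h2-202 chr7:44552236-44552507 on the minus strand of mm10.
Rxrb-201: agccatctttgatcgGTCCCTCTCCAGGGT
Rxrb-202: agccatctttgatcgGGTGCTGACAGAGCT
Nr1h2-201: ctgcctacatcgtggTCATCTTAGAGCCAG
Nr1h2-202: ctgcctacatcgtggAGCCAGAGGATGAGC
Both Rxrb introns, of 103 and 115 bases, were in use. The join that keeps the extra bases (Rxrb-201) had 137 and 132 reads, against 170 and 173 for the join without them (Rxrb-202), which is 44.6% and 43.3%. By TPM the transcripts with the extra bases held 57.4% and 53.3%, so the order again differed. For Nr1h2, introns of 261 and 270 bases had 112 and 112 reads, against 45 and 52. Here the longer form, that of Nr1h2-201, held 71.3% and 68.3% of junction reads and 66.1% and 68.1% of the TPM, so both measures ranked it first.

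The junction table also gave a check of which low members are spliced. At least 3 reads over annotated introns were found in each replicate for 34 of the 40 genes. Ppara had 60 and 38 such reads, Esr1 had 16 and 17 and Vdr had 22 and 11, so the weak signals of these 3 genes came from spliced RNA in both replicates. Nr1i2 and Hnf4g had no such read in either, and Hnf4a had 0 and 6. All 40 genes had a value in the mm9 gene table, and its order followed that of mm10 (Spearman rho 0.991 across the 40 genes, which share the same tissue source). At the top the order differed. Rxrb, at 6.92 and 8.28 RPKM, was above Esrra, at 6.58 and 7.68 RPKM, in both replicates. It was also above Nr1h2, at 7.33 and 7.91 RPKM, in replicate 2. Nr2f1, next after Esrra by mm10 TPM, was at 4.57 and 5.68 RPKM. That was below Rora (6.35 and 5.96), Nr1d2 (5.84 and 6.39) and Nr2f6 (6.09 and 5.82) in both replicates. The mm9 values were lower, and 16 genes reached 1 RPKM in both replicates. RPKM and TPM are different units, so this count does not mean that fewer receptors were detected.

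**Figure D3:**
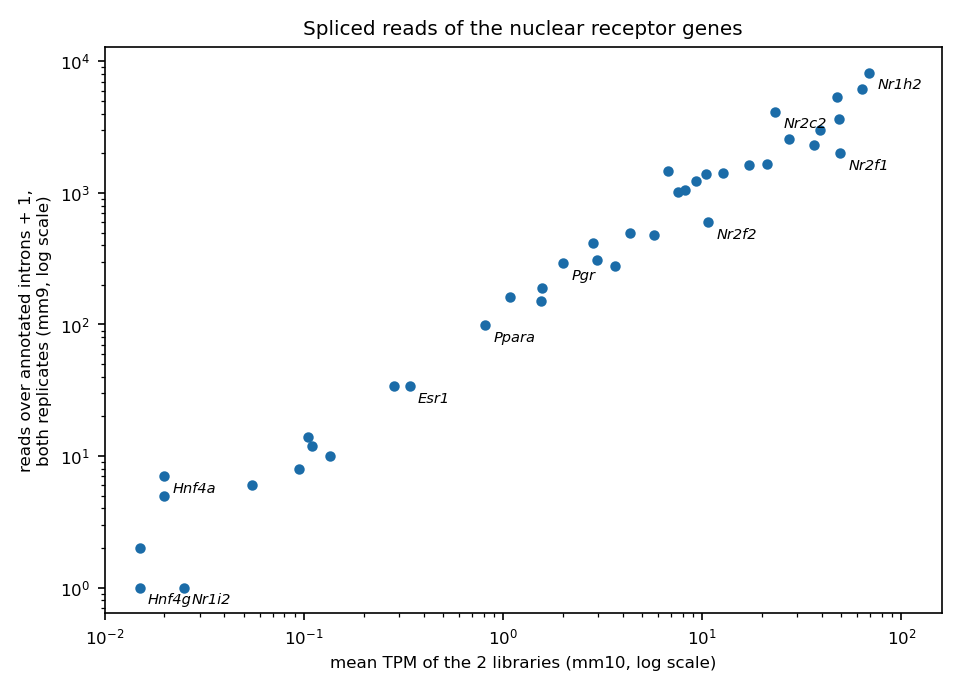
Reads over annotated introns of each nuclear receptor gene, summed over both mm9 replicates with 1 added, against the mean TPM of the 2 mm10 libraries, both on log scales. Spliced reads follow the level across the family; Nr2f1 and Nr2f2, with 6 and 3 annotated introns, lie below most genes of their level, and Hnf4g and Nr1i2 have no reads.

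Some junctions of the members are not in the mm9 annotation. There were 10 of them with at least 10 reads in each replicate, in 6 genes: Esrrg, Nr2c1, Nr2c2, Nr2f1, Nr2f6 and Rxra. The 3 of Esrrg join 3 unannotated donors to 1 annotated exon on chromosome 1, and had 82 and 63, 38 and 43, and 27 and 32 reads. Annotated introns into that exon had 22 and 22, so the donors missing from the annotation carried most of the reads there. By position and length, that exon is the one of 88 bases that ends at the donor of Esrrg-203 and Esrrg-204. The 2 of Nr2c2 joined annotated donors to annotated acceptors in a combination not listed, with 61 and 63 and with 29 and 28 reads.

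Between the libraries, of the 35 members with at least 10 counts over both libraries 1 was at least 2-fold apart, beside 3.22% of all genes tested. This was Nr1h4, at 0.17 TPM in replicate 1 and 0.05 TPM in replicate 2, with a log2 difference of 1.37. Its ratio of 3.22 had a 95% exact interval of 1.13 to 11.2, for counting error only, from 16 against 5 counts. All 16 counts were assigned to transcript Nr1h4-203 and all 5 to Nr1h4-201. On mm9, whose replicates are not tied to these libraries, Nr1h4 had 8 and 3 reads over annotated introns and 8 and 2 over unannotated ones. Of the 8 choroid plexus genes, 5 were at least 2-fold higher in replicate 1, and their part in the Nr1h4 result was not tested.

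Among the 30 members with at least 100 counts none was 2-fold apart, beside 0.637% of all genes with as many counts. Their log2 differences, replicate 1 minus replicate 2, ran from -0.37 to 0.29. The lowest were Nr2f2 (-0.37) and Rorb (-0.36), both higher in replicate 2, and the highest was Ppara (0.29). The median size of the difference was 0.10 for these members and 0.09 for all such genes. How many of the 30 were higher in replicate 1 depended on the scaling: 12 with TMM, the scaling used here, and 17 with ERCC spike-ins. With 1 library on each side, these differences have no replicate check.

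**Figure D4:**
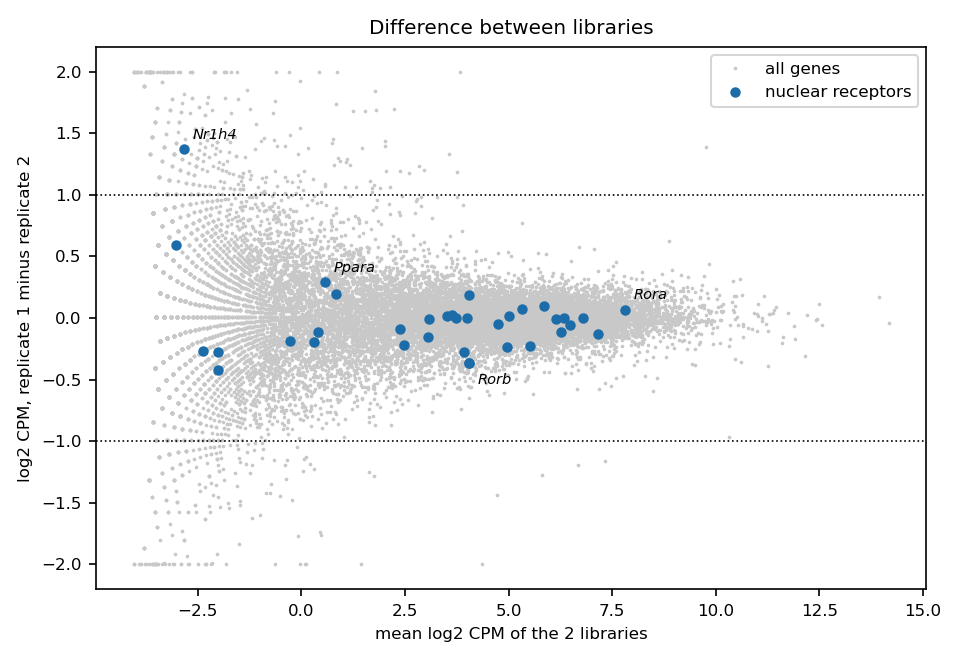
Difference in log2 CPM (library-size scaled counts) between the 2 libraries, replicate 1 minus replicate 2, against their mean, for all genes with at least 10 counts (grey) and the 35 nuclear receptors among them (blue). Dotted lines mark a 2-fold difference, and grey genes beyond 2 or -2 are drawn at those values; only Nr1h4 among the receptors lies outside them, at the left where counts are few, and Rora, the member with the most counts, lies near 0.

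The promoters were described by their content of CpG, the dinucleotide that is depleted in most of the genome outside CpG islands. RefSeq (GRCm38.p6) gave a promoter, 250 bases before to 50 after the start, within 1000 bases of the leading transcript's start for 30 members. The ratio of observed to expected CpG had a median of 0.713 in 23 members at 1 TPM or more (range 0.109 to 1.08), 0.373 in 7 other members (range 0.130 to 0.770) and 0.593 in 19931 promoters in all. A ratio of 0.6 or more was found in 15 of the 23, in 2 of the 7 and in 49.5% of all promoters. The ranges of both groups overlap widely: Nr2e1, under 1 TPM, had a ratio of 0.770 and Nr2f1, among the highest, 0.294. For Nr2f1 and for Nr2f2, which gave the lowest ratio of 0.109, the promoter is that of the transcript leading by TPM. By junction reads it was the smaller alternative, with 3.04% and 2.49% for Nr2f1-202 and 32.5% and 32.1% for Nr2f2-202. The promoters of their other transcripts were not described. Those used for Rora and Esrrg, with ratios of 1.05 and 0.709, also belong to the alternative with fewer junction reads. The promoters of Nr1h2, the highest member by TPM, and of Nr1i2, which had the lowest ratio of the 7, are shown as examples of a high and a low ratio, on the minus strand at chr7:44553916-44554215 and chr16:38294775-38295074, with every CG in capitals.
Nr1h2: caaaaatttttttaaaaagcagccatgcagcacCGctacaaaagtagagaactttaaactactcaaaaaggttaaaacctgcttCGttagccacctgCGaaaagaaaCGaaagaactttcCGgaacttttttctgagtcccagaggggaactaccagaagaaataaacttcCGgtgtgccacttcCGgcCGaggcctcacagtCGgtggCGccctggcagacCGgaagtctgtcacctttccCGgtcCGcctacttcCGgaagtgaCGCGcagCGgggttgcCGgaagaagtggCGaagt
Nr1i2: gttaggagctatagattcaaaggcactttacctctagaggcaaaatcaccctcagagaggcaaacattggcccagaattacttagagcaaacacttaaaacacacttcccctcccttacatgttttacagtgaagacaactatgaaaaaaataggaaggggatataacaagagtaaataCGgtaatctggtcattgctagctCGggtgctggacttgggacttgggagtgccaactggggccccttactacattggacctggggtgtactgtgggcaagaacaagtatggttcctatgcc
The promoter of Nr1h2 holds 19 CG, a ratio of 0.988, and that of Nr1i2 holds 2, a ratio of 0.130. The hexamer AGGTCA, which many receptors bind, was sought on both strands. It was present in the promoters of 2 of the 30 members, Nr1d2 and Pparg, and in 14.4% of all promoters. The E-box CACGTG, the site of the clock activators, was present in that of Nr1i3 and in 8.07% of all. These matches are letters in a window and say nothing of binding.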

How the data were processed

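Per the labels, both cerebellum libraries are strand-specific, sequenced from both ends of each fragment, and were made from polyA RNA over 200 nucleotides in size after rRNA removal. The mm10 quantifications deposited by the authors hold, per the file headers, an expected count (an estimated number of fragments), TPM, a posterior mean TPM, FPKM, and for transcripts the percent of the gene's TPM. TPM is relative to all entries, spike-ins and the phiX control included. Of all 83109117 and 84279927 counts, ERCC spike-ins took 2.85% and 2.95% and phiX took 1.16% and 1.80%. On mm9 the authors deposited RPKM per gene and transcript and junction read counts, for replicates 1 and 2 that name no library. The aligner is not given in the sources used here.

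Names and coordinates came from GENCODE M21 by identifier (42462 genes matched). mm9 and mm10 were joined by identifier and intron length, never by coordinate. Junctions with at least 3 reads in each replicate counted as spliced. Expected counts, rounded to whole numbers, were turned into log2 CPM with edgeR 4.0.16 (TMM scaling, prior count 2, at least 10 counts over both libraries) in R 4.3.3 and called at 2-fold; the comparison was tested on simulated counts. The simulated counts held counting error only, and the genes changed in them had more counts than Nr1h4, so they do not bear on that call. No p-values were computed, because 1 group of 2 libraries has no contrast. Intervals are 95% exact ones and cover counting error only. Alternatives included DESeq2 1.42.0 size factors. All 40 members are named; of each gene list up to 4 highest genes, the lowest and any at least 2-fold apart could be named, and a few other genes and transcripts stand beside a receptor and were chosen after their values were seen. The members and lists were chosen with earlier results of these data known.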

Additional observations from a re-analysis of the deposited data

How the results depend on the processing

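The count of receptors at 1 TPM or more (27) lay between 23 and 28 with FPKM, posterior mean TPM, TPM rescaled over nuclear genes, or thresholds of 0.5 or 2 TPM, and was 27 without either replicate. It was 16 with mm9 RPKM of 1 or more, a cut in another unit that is not the same as 1 TPM. The median receptor level (4.01 TPM) was 5.10 with posterior mean TPM, 2.60 with FPKM and 5.50 with TPM rescaled over nuclear genes, and 3.72 to 4.30 with a replicate left out. The count of receptors at least 2-fold apart (1) was 0 with at least 100 counts and 0 on the scale of log2 of TPM + 1. It was 2 with no filter on low counts and 2 at 1.5-fold, and stayed at 1 with the other scalings and prior count. Scaling by ERCC spike-ins moved the median difference of all genes by 0.06 on the log2 scale. The count of receptors with 1 leading transcript in both libraries (27) was 19 of 19 at 5 TPM or more and 34 of 40 with no filter. Spliced reads in both replicates were found for 30 to 35 genes with minimums of 10 reads and 1 read. Of 140 single log2 differences under 4 alternatives, 1 crossed the 2-fold threshold, that of Nr1h4 with log2 of TPM + 1. Of 40 levels, 14 moved by more than 1 SD with posterior mean TPM. No paired analysis was possible because there is 1 group. With a library left out, no difference between libraries and no leading transcript in both can be computed. Depth limits the 10 receptors with 25 or fewer counts.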
